A study of Homo sapiens with 24 samples.

Results

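The aryl hydrocarbon receptor (AHR), its partners ARNT and ARNT2, its repressor AHRR, and 3 genes known as its targets, TIPARP, CYP1A1 and CYP1B1, were followed in A549 cells exposed to the glucocorticoid dexamethasone (dex). The members were named by gene symbol and found through the transcript identifiers of the count table, and the rows of each gene were summed. Of the 7 genes named, 6 had rows in the table, with 36 of its 119207 transcripts, among 33126 genes in all. CYP1B1 was joined to no row through the annotation used here, which is a later release than that of the table, and 8946 rows stayed unjoined, so the table may hold it. It was not analysed here. A549 is an established human cell line from a lung adenocarcinoma. Cells received either 100 nM dex in ethanol or the same volume of ethanol alone (EtOH, 0.02% v/v of the medium), so the vehicle was common to both treatments. Poly-A RNA was sequenced every 2 h from 1 to 11 h, with 2 libraries for each treatment and time, which gives 24 libraries in 12 groups. The labels call the 2 libraries of a group biological replicates without saying what separated them, so p-values measure the spread between these libraries. Total counts ran from 7813353 to 13619043 with EtOH and from 6708864 to 13748598 with dex.

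AHR is a transcription factor of the bHLH-PAS family that waits in the cytosol with the chaperone HSP90. Ligands such as dioxins, polycyclic hydrocarbons and tryptophan metabolites send it to the nucleus, where it pairs with ARNT and binds xenobiotic response elements (XREs), whose core is GCGTG. The pair switches on CYP1A1 and CYP1B1, enzymes that oxidise aromatic compounds, as well as AHRR and TIPARP, which act back on the receptor. In airway epithelium the pathway is best known for its response to smoke and combustion particles. Dex acts through another receptor, the glucocorticoid receptor (GR), whose consensus element is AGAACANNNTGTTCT.

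The XRE cores near the starts of the members are shown because the AHR pair binds such elements. They were chosen for display knowing that TIPARP and CYP1A1 both carry them, and no binding was measured. The RefSeq promoter table on GRCh38.p14 holds 8 starts of 5 of these genes. In the 250 bases before each start, GCGTG was searched on both strands and found at 4 starts of 3 genes, against 32.2% of the 35116 promoters in the table. In the lines given here the core is in capitals within up to 25 bases of the gene's own strand, read 5′ to 3′, and CACGC is GCGTG on the opposite strand.
TIPARP, 208 bases before a start, chr3:156674372-156674396: cgagaaaggaCACGCcccctcgcgg
TIPARP, 142 bases before the same start, chr3:156674438-156674462: aacgaacgcgCACGCgcgcgcaggg
CYP1A1, 57 bases before its start, chr15:74725571-74725595: agggaaggagGCGTGgccacacgta
AHRR, 30 bases before a start, chr5:321674-321698: cgggcggctcGCGTGccggggtggg
AHRR, 42 bases before another start, chr5:322558-322582: agaagggtggGCGTGtgcgcgcgtt
AHRR, 247 bases before that start, chr5:322360-322377: ggcGCGTGacaggcaggg
AHR and ARNT had no GCGTG in their windows, and the other 2 starts of TIPARP had none either. Neither the GR consensus nor its first 6 letters, AGAACA (both strands, 12.4% of promoters), occurred in any of the 8 windows. The whole consensus occurred in 1 of the 35116 promoters, so its absence from these windows says little. A match is a stretch of letters and not a bound site, and these windows hold only a small part of each gene's surroundings.

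Levels of different genes were set side by side per transcript length, on the scale of TPM (counts divided by row length, with the same total in every library). They add up the rows of a gene, 9 for AHRR, 8 for CYP1A1, 7 for TIPARP, 6 for ARNT, 4 for ARNT2 and 2 for AHR. How reads matching several rows were placed is not known, and its part in the order between genes was not tested. In the 12 EtOH libraries ARNT stood at 31.4 ± 2.06 TPM (SD, n = 12) and TIPARP at 31.2 ± 3.81 TPM, a difference within their spread. AHR followed at 17.9 ± 1.85 TPM and ARNT2 at 14.2 ± 1.32 TPM, and the ranges of these neighbours overlapped (AHR from 14.1 TPM up, ARNT2 up to 16.0 TPM). AHRR stood far lower at 1.14 ± 0.391 TPM, and CYP1A1 at 0.382 ± 0.203 TPM. The receptor and both partners were thus well counted in vehicle cells, while the repressor and the best known target were near the limit of these libraries. With dex, TIPARP alone moved far up this order, to a mean of 98.1 TPM over 12 libraries that ran from 56.2 to 155 TPM.

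The dex label was first checked on 8 genes known as GR targets. Of these, 7 had enough counts to be tested and 6 were higher with dex at each time from 3 to 11 h (5 of 7 at 1 h), and their median log2 fold change was 3.14 at 5 h beside 0.01 for all genes. TSC22D3, which encodes the GR-induced protein GILZ, rose from 8.20 and 6.35 CPM (counts scaled to a common library total after TMM normalisation) in the EtOH libraries of 5 h to 157 and 163 CPM with dex. FKBP5, a co-chaperone of steroid receptors, rose from 26.0 and 27.1 CPM to 369 and 336 CPM at the same time. CYP3A5 passed at no time and ZBTB16 was not tested.

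The tissue label was checked on marker genes. All 7 epithelial markers were above 1 CPM on average, led by the keratin KRT18 (mean 3013 CPM). Of 8 markers of alveolar type II cells, 7 were under 1 CPM and 2 of them, SFTPA1 and SFTPA2, had no count in any library, while ABCA3 averaged 32.6 CPM. Endothelial markers were all under 1 CPM (5 of 5 with rows), as were 5 of 7 fibroblast markers and 4 of 7 leukocyte markers, the highest in each case being CDH5 (0.349 CPM), COL1A1 (14.4 CPM) and CD68 (4.17 CPM). The libraries thus carried an epithelial keratin profile in which the surfactant protein genes that define alveolar type II cells were at or near 0. The summed epithelial markers ranged from 3868 to 12197 CPM between libraries, and KRT7, KRT8 and KRT18 were higher with dex from 3 to 11 h, while EPCAM and COL1A1 were lower at 5, 7 and 9 h, the times at which ARNT2 was also lower. COL1A1 was higher at 3 h (0.57, adjusted p = 0.0388), ABCA3 was higher at 3 h (0.47, adjusted p = 0.0438) and 7 h (0.29, adjusted p = 0.0612), CDH1 was higher at 5 h (0.65) and 7 h (0.55), and KRT19 was lower at 5 h (-0.56) and 9 h (-1.02). KRT7, EPCAM, CDH1, KRT19 and ABCA3 were named after their values were seen. Without dex replicate 2 none of the 7 epithelial markers was called at 9 h. The part of these shifts in the results on the AHR genes was not tested. In bulk RNA, fewer cells of a type and less RNA per cell cannot be told apart.

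Of the 6 members with rows, 5 passed the filter on low counts and were tested among 15337 genes, and CYP1A1 did not. Shares and median fold changes given for all genes are over these 15337 tested genes, also where they stand beside CYP1A1. TIPARP was higher with dex at all 6 times, AHR was lower at 3, 5 and 11 h, ARNT2 was lower at 5, 7 and 9 h, and ARNT and AHRR passed at no time. In edgeR's test of any dex effect over the time course, which called 32.6% of all genes, TIPARP (adjusted p = 9.24e-18), ARNT2 (2.13e-07) and AHR (3.36e-05) passed, and ARNT (0.56) and AHRR (0.87) did not. The share of all genes called was 1.06% at 1 h, 14.1% at 3 h, 25% at 5 h, 28.2% at 7 h, 19.8% at 9 h and 9.12% at 11 h, at an adjusted p of at most 0.1. Against these shares, 1 of the 5 tested members was called at 1 h, 2 at 3 h, 3 at 5 h, 2 at 7 h, 2 at 9 h and 2 at 11 h.

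**Figure D1:**
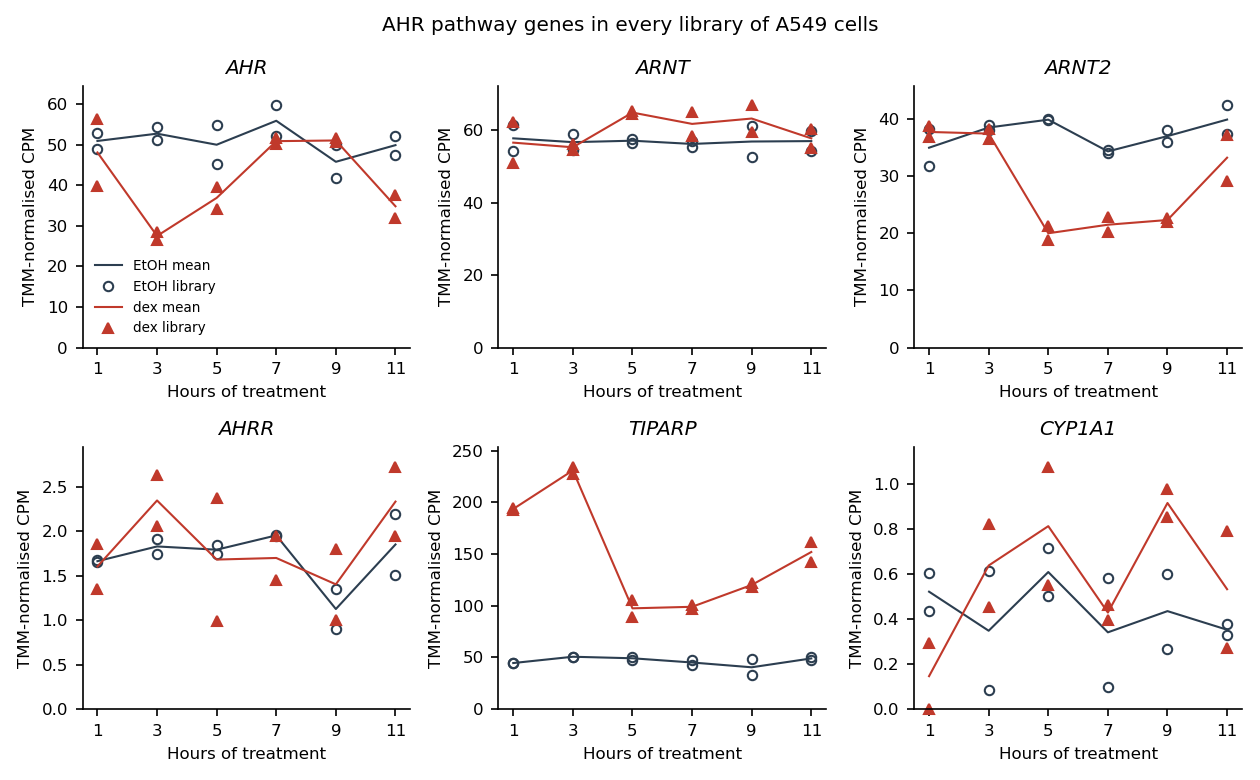
Normalised counts as CPM (y axis, from 0, with its own scale in each panel) of the 6 members against hours of treatment (x axis). Open circles are EtOH libraries, filled triangles dex libraries, and lines join the means of 2 libraries. TIPARP with dex lies above EtOH at every time, AHR dips at 3 h, and ARNT2 stays down from 5 to 9 h.

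TIPARP (chr3:156673235-156706770, forward strand, GRCh38) encodes a mono-ADP-ribosyltransferase of the PARP family that modifies AHR and lowers its activity, and it is itself an AHR target. At 1 h its level was 44.3 and 44.9 CPM in the EtOH libraries and 194 and 193 CPM in the dex libraries. At 3 h it was 50.7 and 50.6 CPM with EtOH and 234 and 228 CPM with dex, the highest pair of the series. The treatments did not come near each other, and the 2 dex libraries of each time differed little. By 5 h the dex libraries had come down to 106 and 89.4 CPM, still above the EtOH libraries at 50.5 and 47.9 CPM. At 7 h dex gave 97.3 and 101 CPM against 42.6 and 47.6 CPM, and at 9 h 119 and 122 CPM against 48.1 and 32.8 CPM. At 11 h dex gave 161 and 143 CPM against 50.2 and 47.8 CPM. The dex course was therefore high at 1 and 3 h, lowest at 5 and 7 h and higher again by 11 h, with no overlap between treatments at any time. Both dex libraries lay above both EtOH libraries for 14.4% of all genes at 1 h, 26.9% at 3 h, 25.7% at 5 h, 30.4% at 7 h, 26.2% at 9 h and 23.3% at 11 h.

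The log2 fold change of TIPARP was 2.14 (SE 0.12, adjusted p = 1.22e-09) at 1 h, where 0.639% of genes were called higher, and 2.19 (SE 0.10, adjusted p = 1.38e-14) at 3 h, where 8.42% were. It was 1.02 (SE 0.11) at 5 h and 1.13 (SE 0.09) at 7 h, and 1.59 (SE 0.15) at 9 h and 1.64 (SE 0.14) at 11 h, where 5.8% were called higher, with adjusted p-values from 1.15e-11 to 1.33e-05. The fall between 3 and 5 h was itself larger than the spread between libraries: the dex effect at 5 h was lower than that at 3 h by a log2 of -1.17 (SE 0.17, adjusted p = 6.51e-05), in a contrast that called 6.94% of genes. The partial return was less sure, with the effect at 11 h above that at 5 h by 0.60 (SE 0.17, adjusted p = 0.0723, 2.91% of genes called). In EtOH alone TIPARP ranged from 32.8 to 50.7 CPM with a median of 47.9 CPM and did not pass the test over time (adjusted p = 0.522). No alternative setting or left-out library ended any of its 6 calls of dex against EtOH, and the contrasts between times were not run under the alternatives.

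**Figure D2:**
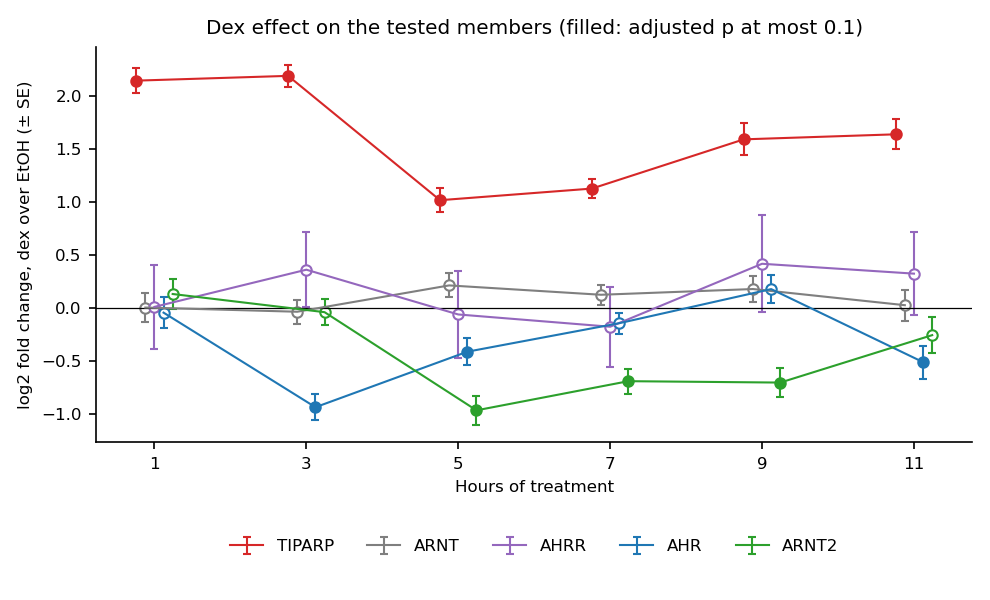
Log2 fold change of dex over EtOH (y axis, error bars SE from edgeR, 2 libraries per treatment) against hours of treatment (x axis) for the 5 members tested. Filled points passed at an adjusted p of at most 0.1. TIPARP runs from 2.14 at 1 h through 1.02 at 5 h to 1.64 at 11 h, while AHR reaches -0.94 at 3 h and ARNT2 -0.97 at 5 h.

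AHR itself (chr7:16916359-17346152, forward strand, GRCh38) encodes the receptor. At 1 h its level was 56.2 and 39.9 CPM with dex and 48.9 and 53.0 CPM with EtOH, and the treatments overlapped. At 3 h it was 28.5 and 26.5 CPM with dex against 54.3 and 51.1 CPM with EtOH, the lowest dex pair of the series. At 5 h it was 39.7 and 34.1 CPM against 45.1 and 54.8 CPM. The dex libraries were thus clearly below EtOH at 3 h and closer to it 2 h later. They stood at 50.1 and 51.7 CPM at 7 h against 52.1 and 59.7 CPM with EtOH, and at 51.5 and 50.5 CPM at 9 h against 49.9 and 41.7 CPM. At 11 h they stood at 37.7 and 31.9 CPM against 52.2 and 47.5 CPM. Both dex libraries lay below both EtOH libraries at 3, 5, 7 and 11 h, as for 24.8%, 30%, 28.4% and 22.4% of all genes, and above them at 9 h, as for 26.2%. The gap was widest at 3 h and narrow at 7 and 9 h.

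At 3 h the log2 fold change of AHR was -0.94 (SE 0.12, adjusted p = 2.66e-06), where 5.65% of genes were called lower. It was -0.41 (SE 0.13, adjusted p = 0.0146) at 5 h and -0.51 (SE 0.16, adjusted p = 0.0781) at 11 h, and it passed neither at 1 h (-0.05) nor at 7 h (-0.15) nor at 9 h (0.18). The dex effect at 9 h was above that at 3 h by 1.10 (SE 0.20, adjusted p = 0.00228, 8.56% of genes called), and that at 3 h was below that at 1 h by -0.90 (SE 0.20, adjusted p = 0.00826, 4.88% of genes called). The call at 3 h was kept in every alternative. That at 5 h was lost with DESeq2 (adjusted p = 0.110), without dex replicate 2 (0.174) and without EtOH replicate 2 (0.310), and that at 11 h at a threshold of 0.05, with DESeq2 (0.164), with a transcript in place of the gene sum (0.179) and without either EtOH replicate 1 (0.698) or 2 (0.371). At 9 h the direction was upward and passed only without EtOH replicate 1 (0.30, adjusted p = 0.0657). In EtOH alone AHR ranged from 41.7 to 59.7 CPM with a median of 51.6 CPM and did not pass the test over time (adjusted p = 0.741).

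ARNT (chr1:150809705-150876768, reverse strand, GRCh38), also known as HIF-1 beta, is the common partner of AHR and of the hypoxia-inducible factors. Its EtOH libraries ranged from 52.5 to 61.4 CPM with a median of 56.9 CPM. At 5 h, where the dex libraries lay highest above EtOH in log2 terms, they held 65.4 and 64.5 CPM against 57.7 and 56.6 CPM. Both dex libraries lay above both EtOH libraries at 5 and 7 h, as for 25.7% and 30.4% of all genes, and the treatments overlapped at the other times. Its log2 fold changes lay between -0.04 (3 h) and 0.21 (5 h, SE 0.11, adjusted p = 0.207), and none passed. ARNT passed only at 9 h and only without EtOH replicate 1 (0.29, adjusted p = 0.0492). It was the steadiest of the well counted members, although a test that misses its threshold does not show that the level stayed the same.

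ARNT2 (chr15:80404350-80597937, forward strand, GRCh38) is a paralogue of ARNT that can take its place in several pairs and is best known from neurons. At 1 h its level was 36.8 and 38.7 CPM with dex and 31.8 and 38.2 CPM with EtOH. At 3 h it was 38.3 and 36.6 CPM with dex and 38.2 and 38.9 CPM with EtOH. Up to 3 h the treatments overlapped. At 5 h dex gave 21.2 and 18.8 CPM against 39.8 and 40.0 CPM, at 7 h 20.2 and 22.9 CPM against 34.0 and 34.7 CPM, and at 9 h 22.0 and 22.7 CPM against 38.1 and 36.0 CPM. At 11 h the dex libraries disagreed with each other, at 29.2 and 37.3 CPM, and EtOH gave 42.4 and 37.4 CPM. ARNT2 was thus low from 5 to 9 h, and the treatments did not overlap from 5 to 11 h, although at 11 h the nearest libraries were almost level. Both dex libraries lay below both EtOH libraries for 30% of all genes at 5 h, 28.4% at 7 h, 28.8% at 9 h and 22.4% at 11 h. Called lower at 2 or more consecutive times were 9.46% of genes, and higher, like TIPARP, 10.7%.

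The log2 fold change of ARNT2 was -0.97 (SE 0.13, adjusted p = 1.73e-07) at 5 h, where 12.6% of genes were called lower, -0.69 (SE 0.12, adjusted p = 1.91e-05) at 7 h and -0.71 (SE 0.13, adjusted p = 0.00299) at 9 h. It was 0.13 at 1 h, -0.04 at 3 h and -0.26 at 11 h (adjusted p = 0.515), and the last passed without dex replicate 2 (-0.45, adjusted p = 0.00968). The dex effect at 5 h was below that at 3 h by -0.92 (SE 0.18, adjusted p = 0.00181), and that at 11 h was above that at 5 h by 0.69 (SE 0.18, adjusted p = 0.0485). In EtOH alone ARNT2 ranged from 31.8 to 42.4 CPM (adjusted p over time = 0.718). The dip of ARNT2 came after that of AHR: at 3 h AHR was lower and ARNT2 held an effect of -0.04 (SE 0.12), and at 7 and 9 h ARNT2 was lower and AHR did not pass.

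The dex effect differed between times for TIPARP (adjusted p = 1.57e-05), ARNT2 (0.000246) and AHR (0.00334) in edgeR's test of the differences, which called 15.4% of genes, and not for ARNT (0.758) or AHRR (0.895). Over time in the dex libraries alone, where 29.3% of genes were called, the same 3 members passed. Against dex at 1 h, 12.8% of genes were called at 3 h, 29.8% at 5 h, 22.6% at 7 h, 21% at 9 h and 22% at 11 h, and TIPARP was lower in the dex libraries from 5 h on, AHR at 3, 5 and 11 h, and ARNT2 at 5, 7 and 9 h. Over time in EtOH, where 8 genes were called (0.0522%), no member passed, and none did at 5, 7 or 11 h against 1 h, where 0.013%, 0.0587% and 0.0913% of genes were called.

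AHRR (chr5:304176-438291, forward strand, GRCh38) encodes a repressor that takes ARNT away from AHR and is induced by it. Its counts were 7 to 30 per library. The lowest, median and highest EtOH libraries held 0.904, 1.74 and 2.19 CPM and the dex libraries 0.990, 1.90 and 2.72 CPM. Within times, both dex libraries lay above both EtOH libraries at 3 h, as for 26.9% of all genes, and below them at 7 h, as for 28.4%, and the treatments overlapped at the other times. Its log2 fold changes ran from -0.18 (7 h) to 0.42 (9 h), with standard errors from 0.35 to 0.46, and no difference was detectable at this depth.

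CYP1A1 (chr15:74719542-74725610, reverse strand, GRCh38), the enzyme most used as a readout of AHR activity, had 0 to 13 counts per library. The 12 dex libraries held 70 counts in all and the 12 EtOH libraries 55. The lowest, median and highest levels were 0.0833, 0.469 and 0.718 CPM with EtOH and 0, 0.506 and 1.078 CPM with dex, and 1 dex library of 1 h had no count, a result that allows up to 3 counts. The mean was 0.580 CPM with dex and 0.435 CPM with EtOH, a difference of 0.145 CPM (two-sided exact permutation test within times over 46656 arrangements, p = 0.192, a test chosen after the counts had been seen). The times did not go one way: at 1 h dex gave 3 and 0 counts against 7 and 6 with EtOH, and at 9 h 6 and 13 against 3 and 6, as CPM without overlap at either time, as for 20.3% of all genes lower at 1 h and 26.2% higher at 9 h. CYP1A1 was thus near the floor under both treatments and no difference pooled over the times was detectable at this depth, beside TIPARP with 327 to 2512 counts per library. Its neighbour CYP1A2, another AHR target, held 0.0692 ± 0.0828 TPM in EtOH and was not tested.

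The table's rows are transcripts, and each was also tested by itself among 56380 rows. Of the 36 rows of the members, 18 passed the filter on low counts. All 7 rows of TIPARP were called higher at all 6 times, with log2 fold changes from 2.06 to 2.25 at 1 h and from 0.78 to 1.18 at 5 h, beside 0.417%, 7.1%, 14.7%, 16.2%, 10.4% and 5.06% of all rows called from the first to the last time. Both rows of AHR were called lower at 3 h (-0.95 for ENST00000242057.4 and -0.96 for ENST00000463496.1), 1 of 2 at 5 h and neither at 11 h. All 3 tested rows of ARNT2 were lower at 5 and 7 h, and 2 of 3 at 9 h. None of the 5 rows of ARNT and not the row of AHRR was called. Rows of 1 gene share most of their sequence, and how reads that match several rows were placed is not named in the sources used here, so the rows of a gene are not independent.

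**Figure D3:**
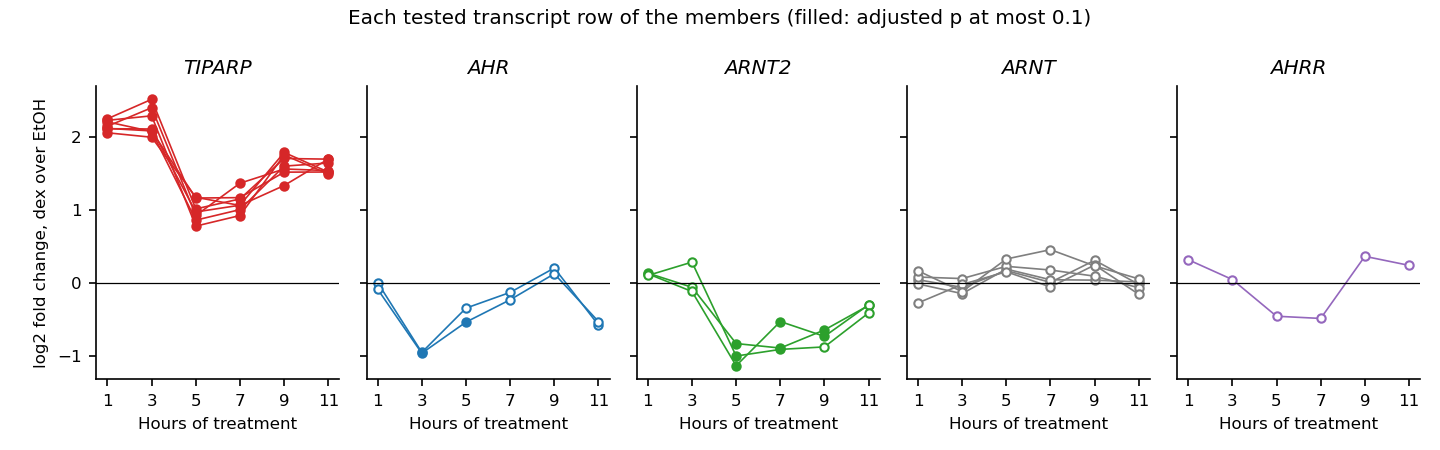
Log2 fold change of dex over EtOH (y axis) against hours of treatment (x axis) for each of the 18 transcript rows tested, in a panel per gene. Lines join the values of a row and filled points passed at an adjusted p of at most 0.1. The 7 rows of TIPARP move together and are all filled, while those of AHR are both filled at 3 h.

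Reads of other genes could enter some of these sums. Of the stretches of 50 bases in AHRR, 2.90% also occur on the same strand in PDCD6, whose gene overlaps it. PDCD6 held 29088 counts in all beside 440 for AHRR, and its part in the AHRR sum was not tested. Of those in AHR, 0.143% occur on the same strand in unrelated genes. On the opposite strand, 3.75% of those in AHR and 1.76% of those in ARNT2 occur in other genes, mostly antisense transcripts with few counts. TIPARP, ARNT and CYP1A1 shared none. PDCD6 was called at no time in the main fits, and neither were EXOC3 and EXOC3-AS1, which lie beside AHRR. Calls among these overlapping or neighbouring genes came only at 11 h, without dex replicate 1. TIPARP-AS1 had 93 counts in 24 libraries and was not tested.

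RNA levels were also followed for a list of 6 genes tied to the cytosolic complex of AHR. At 5 h 5 of the 6 were lower with dex, and the median of the 6 log2 fold changes was -0.39 beside 0.01 for all genes and 12.6% of genes called lower, and the count fell to 3 without EtOH replicate 2. They were HSP90AA1 (-0.63, SE 0.11) and HSP90AB1 (-0.47, SE 0.10), the chaperones, PTGES3 (-0.31, SE 0.10), the co-chaperone p23, XPO1 (-0.25, SE 0.11), a nuclear exporter, and SRC (-1.09, SE 0.11), a tyrosine kinase. HSP90AA1 (-0.39, SE 0.08) and HSP90AB1 (-0.24, SE 0.07) were also lower at 7 h. SRC was lower at every time from 3 h on and reached -1.40 (SE 0.12, adjusted p = 5.03e-06) at 9 h, with 34.1 and 34.7 CPM against 87.7 and 97.1 CPM. HSP90AB1, PTGES3 and XPO1 were named after their values were seen. Apart from SRC, at most 2 of the list passed at any other time in the main fits. Without EtOH replicate 1 more of the list passed at 9 h, and without dex replicate 1 more passed at 11 h.

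Of 12 nuclear coregulators, 4 were higher and 1 lower at 5 h and also at 7 h (12.4% and 12.6%, then 14.7% and 13.5% of all genes), with a list median of 0.22 at 5 h that came to 0.05 at 7 h. NCOR1, a corepressor of nuclear receptors, was higher by 0.35 (SE 0.07) at 7 h. The coactivators NCOA2 (5, 7 and 9 h), EP300 (5 h) and NCOA1 (7 h) were also called higher, SP1 was lower at 5 and 7 h, and NRIP1, a corepressor induced by steroid hormones, was lower at 3 and 11 h. The last 5 genes were named after their values were seen. The count in both directions fell from 5 to 2 at 5 h without dex replicate 1 and from 5 to 3 at 7 h in 1 fit of all libraries.

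Beyond the members, 12 genes known to respond to AHR in various tissues were listed, of which 9 were tested and CYP1A2, GSTA2 and SERPINB2 were not. None was called at 1 h. Lower with dex were 2 at 3 h, 6 at 5 h, 4 at 7 h, 6 at 9 h and 2 at 11 h, beside 5.65%, 12.6%, 13.5%, 8.95% and 3.33% of all genes, and the list median was -0.50 at 5 h beside 0.01 for all genes. Higher were ALDH3A1 at 3 h (0.38) and STC2 at 7 h (0.67). CYP2S1, a cytochrome P450 of epithelia, held 2.16 and 1.98 CPM with dex at 5 h against 9.54 and 9.20 CPM with EtOH (-2.14, SE 0.27, adjusted p = 1.97e-08) and was lower by -2.01 (SE 0.27) at 9 h. NFE2L2, which encodes the antioxidant regulator NRF2, held 89.1 and 89.9 CPM at 3 h against 162 and 167 CPM (-0.88, SE 0.10, adjusted p = 2.45e-07). The other genes lower at 5 h, named after their values were seen, were the quinone reductase NQO1 (-0.56), the transporter ABCG2 (-0.54), ALDH3A1 (-0.26), which had been higher at 3 h, and XDH (-1.60). Several of these genes also answer to NRF2, and the list is not specific to AHR. Over the alternatives the count was 4 to 6 at 5 h and 1 to 8 at 9 h, with the 1 found without dex replicate 2. Counted in both directions it fell from 3 to 1 at 3 h and from 5 to 2 at 7 h without dex replicate 1, and from 2 to 0 at 11 h without EtOH replicate 1.

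Enzymes of tryptophan and kynurenine metabolism supply ligands of AHR. Of 10 listed genes 7 were tested, and IDO1, which opens the pathway in many cells, had 0 counts in every library. KYNU, which breaks kynurenine down, was lower at 5 h, with 142 and 146 CPM against 292 and 261 CPM (-0.92, SE 0.10, adjusted p = 1.28e-09), and at 7, 9 and 11 h. KMO, which hydroxylates kynurenine, was higher at the same times, with 76.7 and 89.4 CPM against 47.7 and 53.6 CPM at 5 h (0.74, SE 0.12, adjusted p = 2.14e-06). The calls of both at 11 h were lost without either EtOH library of that time, that of KMO (adjusted p = 0.0868) in 7 alternatives in all, DESeq2 and a threshold of 0.05 among them, and that of KYNU at 9 h without dex replicate 1 (adjusted p = 0.101). SLC3A2, a subunit of amino acid carriers named after its values were seen, was lower at 5 h (-0.28) and 9 h (-0.36). The other 4 tested passed at no time.

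Of the other bHLH-PAS factors, a family of hypoxia, developmental and clock regulators, 8 of 12 were tested. Lower with dex were 1 at 1 h, 1 at 3 h, 4 at 5 h, 5 at 7 h, 5 at 9 h and 2 at 11 h, beside 0.417%, 5.65%, 12.6%, 13.5%, 8.95% and 3.33% of all genes, and the only gene called higher was HIF1A at 7 h (0.19). SIM2, a developmental repressor, was the gene lower at 1 and 3 h and stayed lower throughout. It held 4.20 and 7.15 CPM at 5 h against 18.9 and 27.4 CPM (-2.01, SE 0.22, adjusted p = 1.4e-07), and its call at 1 h (-0.68, adjusted p = 0.0641) was lost in 5 alternatives, DESeq2 and leaving out either EtOH library among them. NPAS2, a paralogue of CLOCK, was lower at 5, 7 and 9 h (-1.08, SE 0.15 at 5 h), without a call at 9 h with DESeq2 or if either dex library was left out. ARNTL2 (-0.91) and EPAS1 (-0.26) were the other genes lower at 5 h, and ARNTL, the clock factor BMAL1, was lower at 7, 9 and 11 h, all named after their values were seen. The median of the list was -0.09 at 5 h and -0.48 at 9 h, and without dex replicate 1 its count in both directions fell from 6 to 3 at 7 h and from 5 to 1 at 9 h.

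Targets of the hypoxia-inducible factors were listed because these factors also need ARNT. All 12 were tested, and 5, 4, 4, 4 and 2 were higher at 3, 5, 7, 9 and 11 h, beside 8.42%, 12.4%, 14.7%, 10.8% and 5.8% of all genes, with 2 lower at 5 h and 1 lower at 7 and at 9 h. NDRG1, a stress-responsive gene, was higher from 3 to 11 h, at 88.4 and 87.6 CPM against 32.1 and 23.3 CPM at 5 h (1.70, SE 0.13, adjusted p = 8.67e-14). CA9, a membrane carbonic anhydrase, was higher at the same times (0.87, SE 0.15 at 5 h). EGLN3, an oxygen sensor named after its values were seen, was higher at 3 h (0.42) and lower from 5 to 9 h (-0.93 at 5 h), and the list median was 0.29 at 3 h and -0.10 at 5 h. The count in both directions fell from 5 to 3 at 3 h without dex replicate 1 and from 5 to 2 at 9 h without dex replicate 2, and rose from 2 to 6 at 11 h without dex replicate 1.

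TIPARP was set beside its own enzyme family as well. Of 17 listed genes, PARP enzymes and the ADP-ribose hydrolase MACROD1, 15 were tested and none was called at 1 or 3 h, when TIPARP was highest. At 5 h 3 were higher and 3 lower, beside 12.4% and 12.6% of all genes, with a median of -0.07. PARP4, the vault enzyme, was higher from 5 to 11 h (0.36, SE 0.08, adjusted p = 0.000586 at 7 h), and PARP9 at 5 and 7 h (0.44, SE 0.13 at 7 h), calls lost with DESeq2, at 5 h without EtOH replicate 2 and at 7 h without dex replicate 1. Those of PARP4 were lost at 5 h without dex replicate 1, at 9 h without either dex library, and at 11 h at a threshold of 0.05, with 1 transcript per gene and without either EtOH library. PARP3 was the other gene higher at 5 h, and PARP1, PARP2 and PARP14 were lower, named after their values were seen. The count at 5 h fell to 2 without EtOH replicate 2. The size of the TIPARP response had no counterpart in this list, whose largest called log2 fold change was 0.67, for PARP3 at 5 h.

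Microsomal P450 enzymes share the electron carriers that CYP1A1 needs. Of 18 listed genes, which held other P450s, these carriers and the epoxide hydrolase EPHX1, 9 were tested, with 9 P450s of the CYP2 and CYP3 families below the filter. At 5 h 4 were higher and 3 lower, beside 12.4% and 12.6% of all genes. CYP24A1, a mitochondrial P450 that breaks down vitamin D and draws on other electron carriers, was lower at every time and held 229 and 285 CPM at 3 h against 1703 and 1705 CPM (-2.73, SE 0.11, adjusted p = 3.87e-16), although its call at 1 h (-0.49) was lost in 6 alternatives. CYP4F3, which hydroxylates leukotrienes, was higher from 3 to 11 h (1.03, SE 0.13 at 5 h), without a call at 11 h if either EtOH library was left out. The electron donors POR (0.99), CYB5A (1.01) and CYB5R3 (0.65) made up the other genes higher at 5 h, and CYP4F11 (-1.92) and EPHX1 (-0.28) the other genes lower, named after their values were seen.

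**Figure D4:**
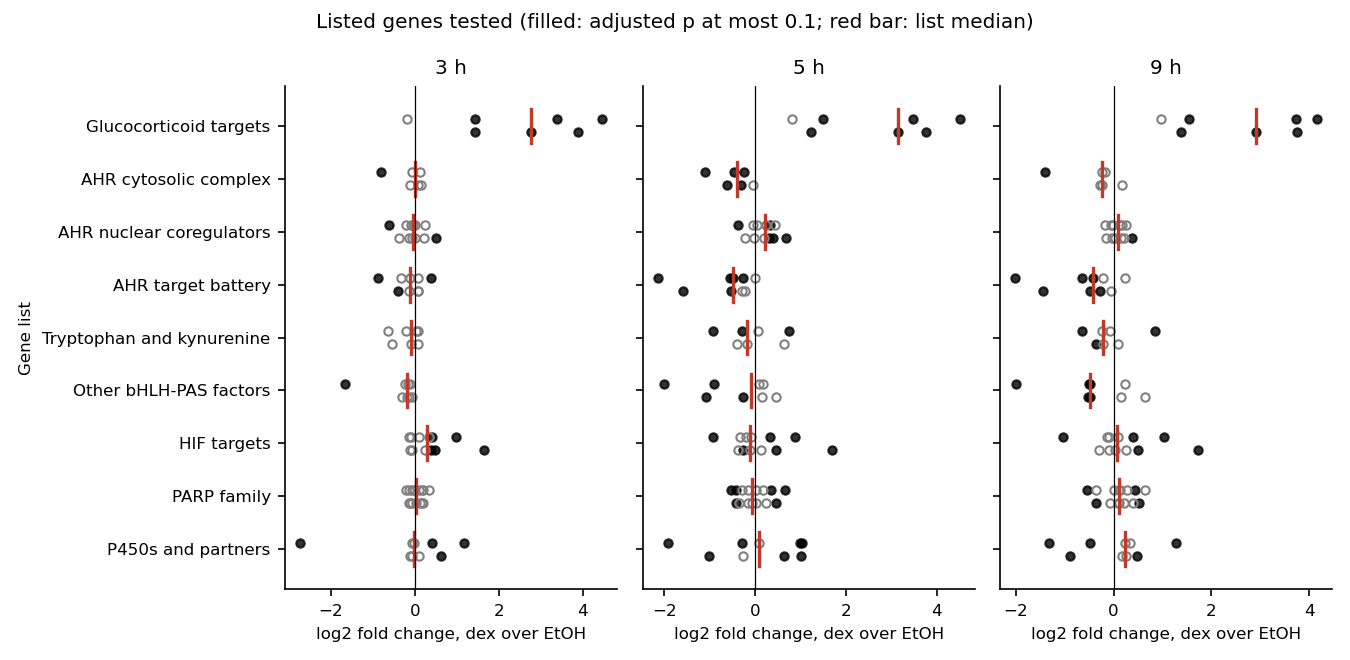
Log2 fold change of dex over EtOH (x axis) at 3, 5 and 9 h for the tested genes of 9 lists (y axis). Filled points passed at an adjusted p of at most 0.1, grey rings did not, and the red bar is the median of the list. The cytosolic complex and the target battery lie left of 0 at 5 h, while the GR targets lie to the right.

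The genes whose levels over the 24 libraries were most like those of each member were ranked by Pearson's r of log2 CPM among 10657 genes with a mean of at least 5 CPM. The libraries share treatments and times, so these values describe a shared course and carry no test. Nearest to AHR were the Notch ligand JAG1 (r = 0.875), the kinase STK17A (0.868) and SPRED1 (0.860), an inhibitor of RAS signalling. Nearest to ARNT2 were SPP1 (0.969), which encodes osteopontin, RAP1GAP (0.958) and the cell cycle factor E2F1 (0.957). Nearest to TIPARP were GALNT4 (0.961) and the readthrough gene POC1B-GALNT4 (0.961), which share sequence, and RGS2 (0.939), a regulator of G protein signalling. ARNT (SLC25A43, 0.788) and AHRR (PLAGL2, 0.710) had less close neighbours. Between members, r was -0.650 for ARNT and ARNT2 and -0.599 for AHR and TIPARP.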

How the data were processed

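The deposited values were raw read counts per GENCODE transcript, which the authors made from 50-base single-end reads of stranded poly-A libraries aligned with Bowtie (genome build hg19 per the labels) and handled with SAMtools. The study's methods name the idxstats utility of SAMtools as the counting step. They do not say how reads matching several transcripts were placed or whether strand was used. The study's methods speak of triplicates, and the labels give 2 libraries per group, which were used. Times were taken from the duration given for each sample, although the treatment text in the labels speaks of 1 h throughout. Transcripts were joined to genes by identifier without version through GENCODE release 29 (GRCh38), which placed 110261 of 119207 rows and 94.1% of the counts, and were summed per gene.

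Genes with low counts were removed with filterByExpr, leaving 15337. Each time was fitted by itself in edgeR 4.0.16 (R 4.3.3) with TMM and the quasi-likelihood F test, without a replicate term. Time courses were tested in 1 fit of the 24 libraries. P-values were adjusted by Benjamini-Hochberg over all genes and called at 0.1. Standard errors were derived from each log2 fold change and its F. In counts simulated for the comparison at 5 h over 15337 genes, 73% of 2-fold and 98% of 4-fold changes were recovered among 200 changed genes, and 8.56% of 187 calls were false. Every simulated gene was given the same spread beyond counting error, unlike real genes. These rates therefore need not hold for the real counts or at other times. Intervals and floors (3 counts) cover counting error only.

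The members and lists were chosen with earlier results of these data known. From each list were named the 2 genes with the largest mean absolute log2 fold change over the 6 times among those called at 2 or more consecutive times in 1 direction. Alternatives were DESeq2 1.42.0, its size factors in edgeR, other filters, 1 fit of all libraries, a threshold of 0.05, 1 transcript per gene, a replicate block and leaving out libraries. CYP1B1 was not analysed here. Results of some listed genes are not reported here by name.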

Additional observations from a re-analysis of the deposited data

Results flagged for a closer look

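The dex effect on 3 members differed between the 6 times by edgeR's interaction test over the 24 libraries. For TIPARP the adjusted p was 1.57e-05, with log2 fold changes from 1.02 at 5 h to 2.19 at 3 h. For ARNT2 it was 0.000246, with values from -0.97 at 5 h to 0.13 at 1 h. For AHR it was 0.00334, with values from -0.94 at 3 h to 0.18 at 9 h. The AHR result did not pass without the libraries of 3 h (adjusted p = 0.134).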

How the results depend on the processing

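No result reversed. Of 1035 values of members under alternatives 1023 kept their direction and side of the threshold, 9 no longer passed, all of AHR, and 3 came to pass, of AHR and ARNT at 9 h and ARNT2 at 11 h. Genes called at 1 h (162) became 247 with no filter. With DESeq2 the calls came to 1136 at 3 h (2159 in edgeR), 2212 at 5 h (3834), 2333 at 7 h (4324) and 1744 at 9 h (3033). At 11 h they came to 2478 in 1 fit over 24 libraries (1399), and the members called there were 1 in place of 2 at a threshold of 0.05, with 1 transcript per gene and with DESeq2. The 8 genes called over time in EtOH became 1237 with no filter, and 2, 5, 1, 3 and 446 without the libraries of 3, 5, 7, 9 and 11 h. Without the libraries of 1 h, 995 genes had a dex effect that differed between times (2360) and 2139 a dex level that did (4489). The causes were not tested.

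Leaving out 1 library gave 88 to 691 calls at 1 h, 1290 to 2598 at 3 h, 2756 to 3333 at 5 h, 2006 to 4821 at 7 h, 1056 to 5297 at 9 h and 720 to 4978 at 11 h. It gave 4386 to 6401 for any dex effect, 1654 to 3968 for an effect that differed between times, 1 to 424 for EtOH over time and 3580 to 6485 for dex over time. The members called were 1 at 1 h, 2 at 3 h, 2 to 3 at 5 h, 2 at 7 h, 2 to 4 at 9 h and 1 to 3 at 11 h. A lone library was assumed to vary like the other group.

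The replicate numbers did not pair the libraries in the same way at every time. Deviations of same-numbered dex and EtOH libraries correlated at 0.365, -0.218, 0.0388, 0.0296, 0.210 and 0.0138 at 1 to 11 h. Same-numbered libraries thus shared some deviation at 1 and 9 h, and the sign was opposite at 3 h. The main fits held no replicate term. With the number as a replicate block 583 genes were called at 1 h and 19 over time in EtOH, and crossed numbers, an alternative chosen after seeing the data, gave 3597 at 3 h. Leaving out a whole replicate number in the fit over 24 libraries was not run, since no residual degrees of freedom remained. Leaving out each library in that fit was also added after seeing the data. AHRR and CYP1A1 are limited by depth, and AHRR drops out at 10 counts in every library.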
